A study of Homo sapiens with 22 samples.

Results

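KELLY neuroblastoma cells transfected with an siRNA against SOX9 are compared here with KELLY cells transfected with a control siRNA, 1 library of each. These 2 libraries are a small share of the 22 in a study of long non-coding RNAs at a neuroblastoma susceptibility locus, whose title names SOX9 as the last member of a regulatory axis with USP36 and CHD7. The other libraries came from SH-SY5Y neuroblastoma cells with stable shRNAs, and of those only the 3 libraries with a scrambled control shRNA in serum at day 0 are used, to set levels beside the KELLY values. By their labels each of these 3 came from a different batch, so their spread includes differences between batches. The genes described are the 14340 of 63677 listed that reached an RPKM of 1 (reads per kilobase of gene, scaled to the total of reads assigned to genes) in either KELLY library.

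The control cells received what the labels call a scrambled siRNA with no mammalian target, and the knockdown cells 1 SOX9 siRNA, given in the labels by its supplier's ID. Both were non-differentiated and were collected 48 h after transfection, according to the labels. Total RNA was depleted of ribosomal RNA and made into stranded libraries. The control library held 25471924 assigned reads and the SOX9 siRNA library 24003701. With 1 siRNA and 1 library a side, no difference below has a replicate check and no p-value is given. Each ratio is SOX9 siRNA over control siRNA. Log2 ratios were taken of RPKM + 0.5, which shrinks the ratio of low genes. A gene past 2-fold has a log2 ratio of at least 1 or at most -1. A low gene can thus differ by over 2-fold in RPKM without being past 2-fold as counted here. The intervals of 95% beside ratios of RPKM come from the recovered reads and cover counting error only.

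SOX9 is a transcription factor of the SOX family that binds DNA through an HMG box. It directs cartilage formation, and in the embryo it takes part in neural crest development, the origin of the sympathetic lineage from which neuroblastoma arises. Immediate early genes such as FOS and EGR1 encode transcription factors and regulators that cells switch on within minutes of a stimulus, without new protein synthesis. Their induction runs in large part through CREB at cyclic AMP response elements and through serum response factor at CArG boxes, and their transcripts decay quickly.

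SOX9 was at 5.61 RPKM (562 reads) with the control siRNA and at 0.974 RPKM (92 reads) with the SOX9 siRNA. The ratio of RPKM was 0.174 (0.138 to 0.217), and the log2 ratio was -2.05. The direction matched the label of the knockdown library. In SH-SY5Y control cells, whose table was scaled separately, SOX9 lay at 4.40, 10.4 and 22.3 RPKM in the 3 libraries, so the KELLY control level was inside that range.

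Across the 14340 genes the median log2 ratio was 0.05, with 5th and 95th percentiles of -0.55 and 0.71. With the SOX9 siRNA 359 genes (2.5%) were past 2-fold higher and 214 genes (1.49%) past 2-fold lower, 4.0% in all. At 1.5-fold 1043 genes (7.27%) were higher and 639 (4.46%) lower. Across genes, which are not independent replicates, log2(RPKM + 0.5) in both libraries correlated with a Pearson r of 0.963. The counting interval held 1 for 168 of the higher genes and for 46 of the lower genes. It lay wholly past 2-fold for 78 higher and 124 lower genes.

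**Figure D1:**
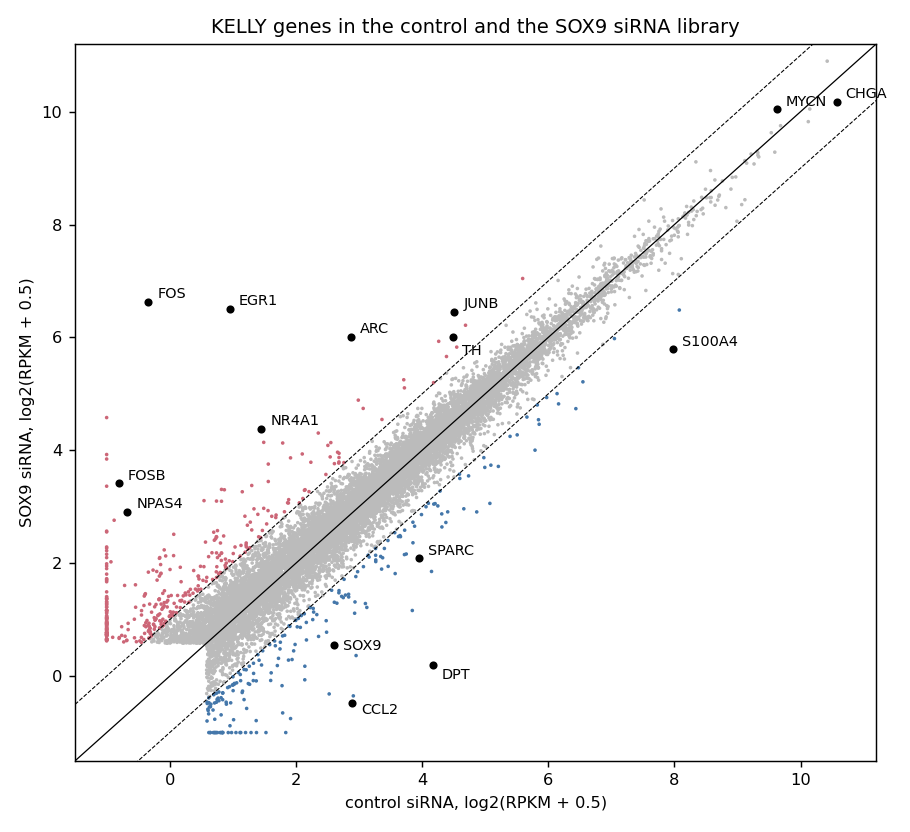
Each point is 1 of 14340 genes, at log2(RPKM + 0.5) in the control siRNA library (x axis) and in the SOX9 siRNA library (y axis), with the solid line at equal levels, dashed lines at 2-fold, red points past 2-fold higher and blue points past 2-fold lower. Named genes are black: FOS and EGR1 stand far above the line, DPT and CCL2 far below it, and points at -1 on an axis are genes with 0 reads in that library.

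Many of the higher calls were short genes with few reads. Of 698 genes under 300 bases, with a median of 10 reads over the 2 libraries, 223 (31.9%) were past 2-fold higher and 53 (7.59%) lower. Among 317 small RNA genes 133 (42.0%) were higher. Among 10697 protein-coding genes 60 (0.561%) were higher and 122 (1.14%) lower, so the balance between directions was the opposite of that over all genes. Most gene lists below hold protein-coding genes. For them these shares are a closer background than the shares over all genes that are given beside each list. At protein-coding genes of 5 RPKM or above in either library, 7703 in all, 28 were higher and 72 lower, of which 6 and 10 were past 4-fold.

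**Figure D2:**
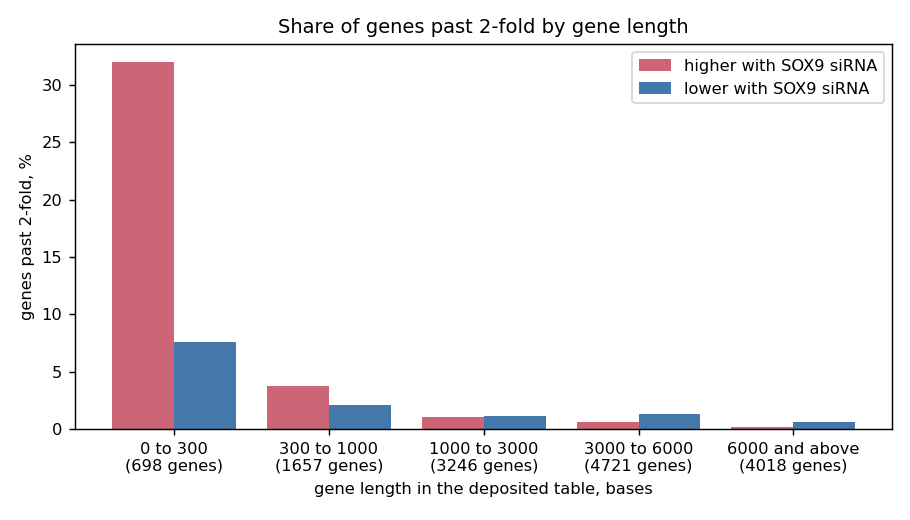
Bars give the share of genes past 2-fold (y axis, %) in 5 classes of gene length in bases (x axis, with the number of genes), red for genes higher and blue for genes lower with the SOX9 siRNA. The class under 300 bases has 31.9% higher, while in the longest class 0.224% were higher and 0.647% lower.

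The promoters of 4 immediate early genes are shown because these genes had the 4 highest log2 ratios of the protein-coding genes at 5 RPKM or above, and because their regulation by CREB and serum response factor is well known. The sequences are the 250 bases before the gene start from RefSeq (GRCh38.p14), with FOS at chr14:75278578-75278827, EGR1 at chr5:138465229-138465478, FOSB at chr19:45467746-45467995 and NPAS4 at chr11:66420754-66421003, all on the plus strand. Capitals mark TGACG, the core of the cyclic AMP response element, on either strand (read as CGTCA on the other), and the CArG box.
FOS: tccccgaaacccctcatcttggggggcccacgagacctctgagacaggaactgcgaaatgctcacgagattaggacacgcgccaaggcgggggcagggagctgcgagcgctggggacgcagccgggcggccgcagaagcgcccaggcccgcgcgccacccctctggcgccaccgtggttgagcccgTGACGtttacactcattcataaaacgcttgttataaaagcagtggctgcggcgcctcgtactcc
EGR1: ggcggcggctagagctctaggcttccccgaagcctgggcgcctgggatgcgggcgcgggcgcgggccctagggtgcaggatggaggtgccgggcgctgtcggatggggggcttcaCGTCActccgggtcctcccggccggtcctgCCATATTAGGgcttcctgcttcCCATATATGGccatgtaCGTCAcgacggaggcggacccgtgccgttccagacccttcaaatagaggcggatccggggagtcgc
FOSB: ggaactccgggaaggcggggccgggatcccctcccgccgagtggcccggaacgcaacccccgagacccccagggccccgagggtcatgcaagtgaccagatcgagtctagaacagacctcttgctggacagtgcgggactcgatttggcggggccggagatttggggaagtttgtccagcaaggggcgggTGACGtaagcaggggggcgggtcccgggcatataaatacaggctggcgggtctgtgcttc
NPAS4: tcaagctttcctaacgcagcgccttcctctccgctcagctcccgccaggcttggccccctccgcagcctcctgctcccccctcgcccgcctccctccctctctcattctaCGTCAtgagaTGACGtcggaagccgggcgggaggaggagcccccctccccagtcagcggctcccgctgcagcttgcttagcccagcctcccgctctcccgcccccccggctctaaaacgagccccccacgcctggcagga
In FOS the motif starts 64 bases before the gene start and in FOSB 60 bases before it. EGR1 has CGTCA starting 135 and 66 bases before the start, and CArG boxes starting 105 and 83 bases before it. NPAS4 has both orientations, 140 and 130 bases before the start. TGACG in either orientation was found in 21.7% of 27305 RefSeq promoters of the same window. It was found in 8 of the 9 immediate early genes past 2-fold higher that have a promoter available. Among those measured but not past 2-fold, it was in 5 of the 11 with a promoter. These groups were split by the same log2 ratios that are described here. FOS, FOSB and NPAS4 passed the RPKM filter only through the SOX9 siRNA library. Whether the motif bears on the values was not tested. The CArG box was found in 1.14% of all promoters, and in EGR1 and SRF among these immediate early genes. Bases further than 250 before the gene start were not searched, so a motif there would be missed. The full palindrome TGACGTCA, which contains TGACG, was in 1.77% of all promoters and in DUSP1, JUND and MAFF. A match is a description of the letters and not a site shown to be used.

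Many immediate early genes were higher with the SOX9 siRNA. Of 34 genes listed, 25 passed the RPKM filter, 11 were past 2-fold higher and 0 lower, against 2.5% and 1.49% over all genes. The list was chosen with earlier results of these data known, and FOS and EGR1 were markers given beforehand. These counts describe the list and are no independent check. The median log2 ratio of the 25 was 0.83, against 0.05 over all genes, and 20 were above 0, against 56.5% over all genes. FOS, FOSB, NPAS4 and EGR3 passed the filter only through the SOX9 siRNA library, where they are high and so had to differ. With RPKM 1 or above required in both libraries, 7 genes were past 2-fold higher and the median log2 ratio was 0.67. The same holds for other low genes named here with a level under 1 RPKM in 1 library. The summed level of the 25 was 216 RPKM with the control siRNA and 619 RPKM with the SOX9 siRNA.

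FOS, which pairs with JUN proteins to form the AP-1 factor, was at 0.291 RPKM (24 reads) with the control siRNA and at 98.5 RPKM (7656 reads) with the SOX9 siRNA. The ratio was 339 (227 to 529), the largest of any protein-coding gene at 5 RPKM or above. FOSB, its close relative, was at 0.0707 RPKM (10 reads) and 10.2 RPKM (1357 reads), a ratio of 144 (78.1 to 301). Both were near 0 in the control library. In the 3 SH-SY5Y control libraries FOS lay at 0.708, 0.851 and 1.87 RPKM, so the level with the SOX9 siRNA was far above that of either control line. FOSL2, another FOS relative, went from 6.08 to 4.35 RPKM, a log2 ratio of -0.44.

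The JUN partners of FOS differed among themselves. JUNB was at 22.3 RPKM with the control siRNA and 87.1 RPKM with the SOX9 siRNA, a log2 ratio of 1.94. JUN went from 31.8 to 36.0 RPKM, a log2 ratio of 0.18, and JUND from 55.4 to 46.6 RPKM, a log2 ratio of -0.25. Only JUNB of the 3 was past 2-fold.

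EGR1, a zinc finger factor that growth factors and depolarisation induce, was at 1.44 RPKM (115 reads) and 90.7 RPKM (6830 reads), a ratio of 63.0 (52.4 to 76.5). EGR3 was at 0.0243 RPKM (3 reads) and 3.57 RPKM (416 reads), a ratio of 147 (50 to 716). The other 2 members stayed under the RPKM filter but had the same direction. EGR2 had 1 read with the control siRNA and 86 with the SOX9 siRNA. EGR4 had 0 and 41 reads, which against a floor of 3 reads is 14.5-fold higher, with a lower limit of the counting interval of 11.3-fold.

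NR4A1, an orphan nuclear receptor, was at 2.23 RPKM and 20.3 RPKM, a log2 ratio of 2.93. NR4A2, a relative known for its part in dopamine neurons, went from 1.32 to 3.06 RPKM, a log2 ratio of 0.97, just short of 2-fold. NR4A3 stayed under the filter, with 8 and 28 reads. NR4A1AS had 1 read and 138 reads, but 82.4% of its exonic bases lie within NR4A1 on the other strand. Whether the counting used strand is not given in the sources used here, so the reads of this pair cannot be told apart.

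NPAS4 and ARC are known as genes that neurons induce with activity. NPAS4, a transcription factor known as specific to neuronal activity, was at 0.126 RPKM (11 reads) and 7.00 RPKM (575 reads), a ratio of 55.5 (30.8 to 112). ARC, whose product acts at synapses and forms capsid-like shells, was already expressed in the control, at 6.84 RPKM, and reached 64.2 RPKM, a log2 ratio of 3.14.

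DUSP1, BTG2 and IER2 complete the 11 genes past 2-fold. DUSP1, a phosphatase of MAP kinases, went from 9.80 to 22.9 RPKM, a log2 ratio of 1.18. BTG2, an antiproliferative gene, went from 5.82 to 15.1 RPKM (log2 ratio 1.31), and IER2 from 12.6 to 37.6 RPKM (1.54). IER2 and JUNB share 30.8% and 14.2% of their exonic bases with genes on the other strand. ATF3, KLF2, KLF10, MAFF and ZFP36 had log2 ratios from 0.48 to 0.83, below 2-fold. KLF6, IER3, IER5, DUSP2 and SRF lay between -0.07 and 0.23.

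The ERK feedback genes follow signalling through that kinase. Of 16 listed, 14 passed the filter, 0 were past 2-fold in either direction, and the median log2 ratio was 0.04. Over all genes 2.5% were past 2-fold higher and 1.49% lower, and the median was 0.05. DUSP6 went from 3.61 to 3.36 RPKM and SPRY4 from 38.4 to 37.9 RPKM. PHLDA1 had the lowest ratio, from 19.01 to 12.04 RPKM (log2 ratio -0.64), and SPRY1 the highest, from 0.843 to 1.48 RPKM (0.56).

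**Figure D3:**
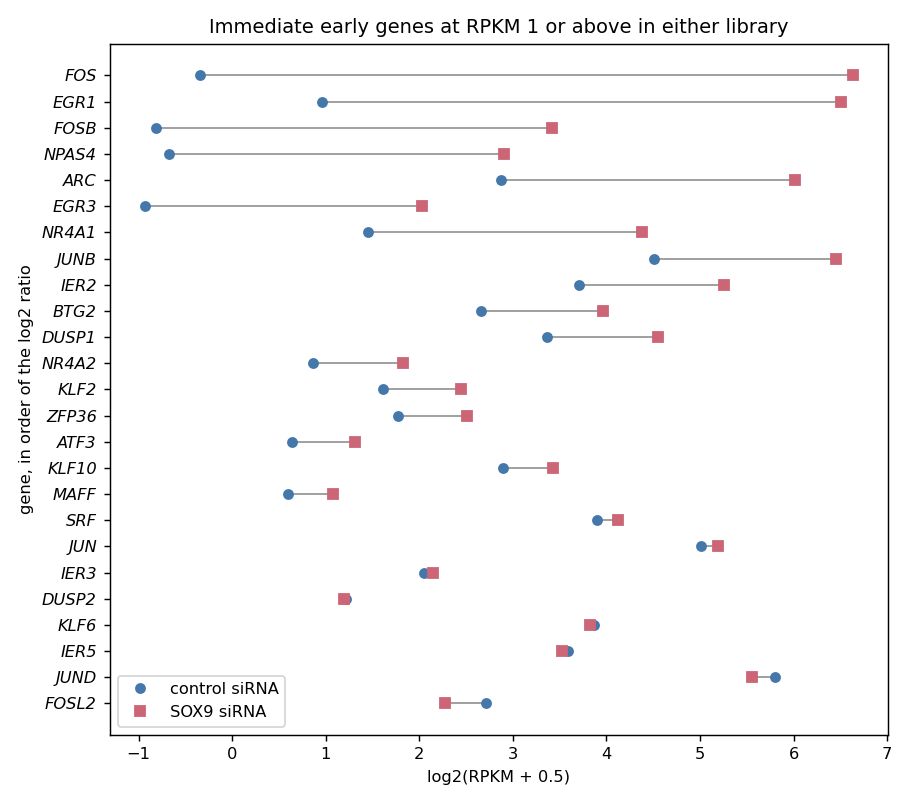
For each of the 25 immediate early genes at RPKM 1 or above in either library (y axis, in order of the log2 ratio), the blue circle gives log2(RPKM + 0.5) with the control siRNA and the red square that with the SOX9 siRNA. The 11 genes from FOS to DUSP1 are past 2-fold, and the bottom rows from DUSP2 to FOSL2 have the square on or to the left of the circle.

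The 15 largest higher protein-coding genes also held IGF2, DKK1, DDTL, EIF4A1, TH, ID3 and HES1. IGF2, a fetal growth factor from an imprinted gene, was at 7.44 RPKM (1323 reads) and 29.1 RPKM (4883 reads), a ratio of 3.92 (3.68 to 4.17). The SH-SY5Y controls also lay far apart for IGF2, at 48.9, 134 and 200 RPKM. The annotation shares 73.7% of its exonic bases with other genes on the same strand, among them the read-through INS-IGF2, which had 0 reads in both libraries. DKK1, a secreted Wnt antagonist, was at 3.79 RPKM and 14.8 RPKM, a ratio of 3.91 (3.35 to 4.57). In SH-SY5Y controls DKK1 lay between 218 and 243 RPKM, far above both KELLY levels.

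ID3 and ID1, inhibitors of basic helix-loop-helix factors and well known BMP targets, went from 47.8 to 132 RPKM (log2 ratio 1.45) and from 22.9 to 56.4 RPKM (1.28). ID2 was level, at 78.7 and 79.1 RPKM. HES1, a repressor downstream of Notch, went from 5.33 to 14.3 RPKM, a log2 ratio of 1.34. DDTL and EIF4A1 had log2 ratios of 1.73 and 1.72, but DDTL has a close copy in DDT, and 48.6% of the exonic bases of EIF4A1 are shared with other genes, so their values are uncertain.

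Another 13 protein-coding genes at 5 RPKM or above were past 2-fold higher, among them BTG2, DUSP1 and ID1. Those with other roles include STC1, the secreted stanniocalcin 1, from 17.7 to 36.3 RPKM (log2 ratio 1.02). STC1 was listed at 0 RPKM in all 3 SH-SY5Y controls. C9orf72, known for its repeat expansion in motor neuron disease, went from 3.93 to 9.37 RPKM (1.16), POLR3G, a subunit of RNA polymerase III, from 3.03 to 7.03 RPKM (1.09), and ARRDC3, an arrestin-like adaptor, from 3.82 to 8.36 RPKM (1.04). These were picked for their roles after their values were seen, and GPR27, ARHGAP33, MND1 and ABHD11 had log2 ratios from 1.02 to 1.11.

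TH, tyrosine hydroxylase, makes the rate-limiting step of catecholamine synthesis. It was at 22 RPKM (1817 reads) with the control siRNA and at 64.0 RPKM (4979 reads) with the SOX9 siRNA, a ratio of 2.91 (2.76 to 3.07). SH-SY5Y controls held 0.0110, 0.130 and 1.57 RPKM of TH, below both KELLY libraries. TH, a marker given beforehand, was the only one of 22 measured catecholamine and granule genes past 2-fold, and 0 were past 2-fold lower. Over all genes the shares were 2.5% higher and 1.49% lower.

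The rest of the catecholamine list was divided. SLC18A1, a vesicular monoamine transporter, went from 20.4 to 40.8 RPKM, a log2 ratio of 0.98. DBH and DDC, the next enzymes of the pathway, went from 118 to 155 RPKM (0.40) and from 119 to 135 RPKM (0.18). SLC6A2, the noradrenaline transporter, was level at 49.97 and 50.9 RPKM. Granule proteins lay lower: CHGA went from 1522 to 1154 RPKM, CHGB from 276 to 168 RPKM and SCG2 from 536 to 327 RPKM, with log2 ratios of -0.40, -0.71 and -0.71. VGF, a granule protein that neurotrophins induce, went the other way, from 55.4 to 97.3 RPKM (0.81). The median of the list was -0.10, against 0.05 over all genes.

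Among the lower protein-coding genes at 5 RPKM or above DPT had the lowest log2 ratio. DPT encodes dermatopontin, a small matrix protein that binds proteoglycans. It was at 17.5 RPKM (796 reads) with the control siRNA and at 0.653 RPKM (28 reads) with the SOX9 siRNA, 26.8-fold lower (18.4 to 40.6). The SH-SY5Y controls held at most 0.188 RPKM. The annotation shares 54.6% of its exonic bases with a non-coding gene on the same strand, so part of its reads may have been split between them.

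CCL2, a chemokine that draws monocytes, was at 6.94 RPKM (201 reads) and 0.220 RPKM (6 reads), 31.6-fold lower (14.3 to 87.0). In the SH-SY5Y controls it lay at 1.08, 1.11 and 910 RPKM. Control libraries of that line, each from a different labelled batch, thus differed from each other by more than the KELLY pair. FBXO2, a ubiquitin ligase subunit that binds glycoproteins, was at 5.27 RPKM (313 reads) and 0.304 RPKM (17 reads). INSYN1, a protein of inhibitory synapses, was at 13.9 and 1.74 RPKM, and GLRX, glutaredoxin, at 7.25 and 0.787 RPKM. These 5 genes had log2 ratios between -3.96 and -2.59.

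EDNRA, an endothelin receptor that acts in neural crest, went from 17.3 to 3.12 RPKM (log2 ratio -2.30). GPER1, a membrane receptor for oestrogen, went from 5.59 to 0.939 RPKM (-2.08). TRIB1, a pseudokinase scaffold, went from 33.2 to 7.84 RPKM (-2.02). TGFB1, the ligand TGF-beta 1, went from 11.4 to 3.02 RPKM (-1.76), and MDK, the growth factor midkine, from 8.09 to 1.94 RPKM (-1.82). In SH-SY5Y controls MDK lay between 267 and 273 RPKM, far above KELLY. SESN3, a stress-induced regulator of mTOR signalling, went from 54.9 to 15.5 RPKM (-1.79), and ENO3, the muscle form of enolase, from 8.22 to 1.82 RPKM (-1.91).

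SPARC, a matricellular protein that binds collagen, was at 14.9 RPKM (1839 reads) and 3.75 RPKM (435 reads), 3.98-fold lower (3.59 to 4.43). SH-SY5Y controls held 26.8, 31.3 and 94.3 RPKM. SPARC was thus lower in the SOX9 siRNA library than in any control library of either line used here.

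**Figure D4:**
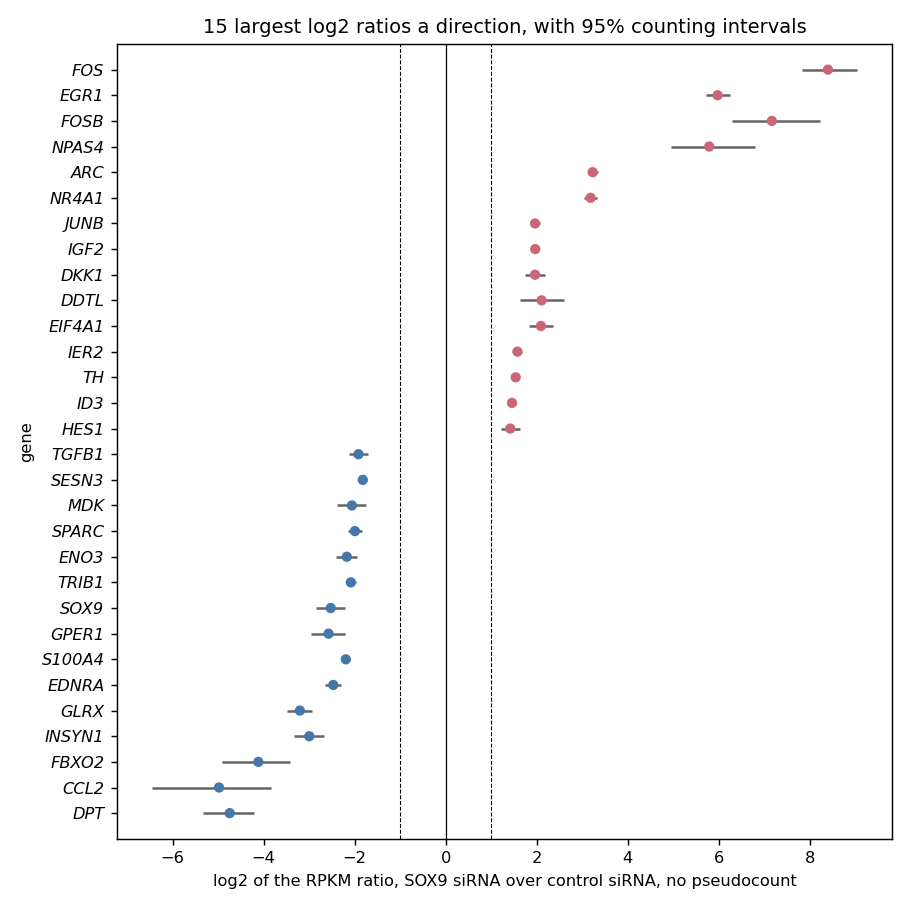
Points give the log2 ratio of RPKM without a pseudocount (x axis) for the 15 protein-coding genes a direction with the largest log2 ratio at 5 RPKM or above in either library (y axis), with lines for the 95% counting interval, a solid line at 0 and dashed lines at 2-fold. All 30 intervals lie past 2-fold, and those of FOS, FOSB, NPAS4, FBXO2, DPT and CCL2, each with under 30 reads in 1 library, are the widest.

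ACAAAG, a motif that SOX factors bind, was searched in the same promoter windows on both strands. It was found in 13.7% of all promoters and in 3 of the 11 promoters available for the 15 largest lower genes, DPT, GLRX and EDNRA. A second SOX motif, AACAAT, was in 9.19% of all promoters and in 0 of the 11. The promoters of DPT (chr1:168729207-168729456, minus strand) and EDNRA (chr4:147480847-147481096, plus strand, where the motif reads CTTTGT) are shown with the motif in capitals, again from RefSeq (GRCh38.p14), because DPT had the lowest log2 ratio and EDNRA the most reads of the 3.
DPT: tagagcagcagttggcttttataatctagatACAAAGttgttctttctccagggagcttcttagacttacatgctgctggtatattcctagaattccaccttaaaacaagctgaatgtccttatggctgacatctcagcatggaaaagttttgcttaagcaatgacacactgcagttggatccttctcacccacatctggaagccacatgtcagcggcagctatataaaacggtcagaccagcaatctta
EDNRA: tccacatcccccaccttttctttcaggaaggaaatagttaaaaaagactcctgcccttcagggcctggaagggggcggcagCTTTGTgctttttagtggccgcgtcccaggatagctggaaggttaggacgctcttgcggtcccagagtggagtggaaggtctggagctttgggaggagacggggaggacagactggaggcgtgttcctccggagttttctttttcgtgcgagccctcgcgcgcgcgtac
The motif starts 219 bases before the gene start in DPT and 169 bases before it in EDNRA. Neither the share nor the position says whether SOX9 binds there.

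Genes of the S100 family encode small calcium-binding proteins. This family was picked after its values were seen. Of 9 measured, 4 were past 2-fold lower, 0 higher and 8 below 0, with a median log2 ratio of -0.74, against 1.49% lower and 2.5% higher, 56.5% above 0 and a median of 0.05 over all genes. S100A4, also known as metastasin, was at 251 RPKM (6559 reads) and 54.9 RPKM (1351 reads), 4.58-fold lower (4.31 to 4.85). S100A10 went from 70.0 to 31.6 RPKM and S100A16 from 14.2 to 5.80 RPKM, while S100A6 went from 555 to 347 RPKM (-0.68). S100A3 had 35 reads and 1 read. S100B, a glial marker, was the 1 member above 0, at 4.42 and 5.06 RPKM.

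Matrix genes went both ways. Of 48 matricellular and proteoglycan genes 19 passed the filter, with a median log2 ratio of 0.03. Against 2.5% higher and 1.49% lower over all genes, 2 of the 19 were past 2-fold higher and 3 lower. The lower ones were DPT, SPARC and MFAP4, a microfibril protein, from 3.21 to 1.36 RPKM. DPT and SPARC were markers given beforehand, so their calls are no independent check of the list. The higher ones were SPOCK1, a testican proteoglycan, from 0.394 to 1.31 RPKM, and SPP1, osteopontin, with 2 and 61 reads. SPOCK1 and SPP1 passed the filter only through the SOX9 siRNA library, and DPT only through the control library. With RPKM 1 or above required in both libraries, 0 were past 2-fold higher and 2 lower. BGN, biglycan, the most abundant of the list, went from 267 to 138 RPKM, a log2 ratio of -0.95. LUM and DCN, proteoglycans of the same class, went from 47.7 to 57.4 RPKM and from 7.78 to 11.0 RPKM.

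Among 13 measured collagens 1 was past 2-fold lower and 0 higher, against 1.49% and 2.5% over all genes, and the median was -0.05. COL3A1 went from 1.36 to 0.226 RPKM. The chains of type IV, COL4A1 and COL4A2, were level, at 16.8 and 17.7 RPKM and at 38.2 and 37.4 RPKM. COL6A1 went from 34.0 to 22.9 RPKM (-0.56). Only the fibrillar COL3A1, a low gene here, was past 2-fold.

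Integrins, the receptors that hold cells to matrix, differed in direction. Of 14 measured integrins and laminins 1 was past 2-fold higher and 1 lower, against 2.5% and 1.49% over all genes. ITGAV went from 23.6 to 11.4 RPKM (-1.02), ITGA9 from 5.92 to 14.2 RPKM (1.19), and ITGB1, the common partner, from 45.2 to 46.5 RPKM. Proteases and inhibitors of the matrix had 23 measured, 2 past 2-fold higher and 0 lower, against 2.5% and 1.49% over all genes. MMP1, an interstitial collagenase, had 0 and 50 reads, 17.7-fold higher against the floor of 3 reads with a lower limit of the counting interval of 13.9-fold, and ADAMTS1 went from 1.79 to 4.08 RPKM (1.00). MMP2, by far the most abundant protease of the list, went from 133 to 95.1 RPKM (-0.48).

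Of 27 genes known as SOX9 targets in cartilage, only 7 passed the filter in KELLY. COL2A1 had 4 and 2 reads, and ACAN had 0 in both libraries. None of the 7 was past 2-fold, all 7 were below 0, and the median was -0.20. Over all genes 2.5% were past 2-fold higher and 1.49% lower, 56.5% were above 0, and the median was 0.05. COL9A2 went from 2.66 to 1.98 RPKM (-0.35) and CHST11, a chondroitin sulphotransferase, from 5.71 to 4.40 RPKM (-0.34).

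SOX9 was the only 1 of 8 measured SOX genes past 2-fold, against 2.5% higher and 1.49% lower over all genes. SOX4 was the most abundant, at 59.8 and 46.0 RPKM (log2 ratio -0.38). SOX12 was at 20.4 and 19.3 RPKM and SOX7 at 10.4 and 12.2 RPKM. SOX5 and SOX6, partners of SOX9 in cartilage, had at most 44 reads in either library, and SOX10, the neural crest relative, at most 4. The other genes of the title's axis were near level: CHD7, a chromatin remodeller, went from 9.85 to 11.4 RPKM and USP36, a deubiquitinase, from 10.6 to 12.2 RPKM, both with log2 ratios of 0.20. NBAT1, a second long non-coding RNA of the locus, had 20 and 33 reads and stayed under the filter.

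The transcription factors that define the adrenergic state of neuroblastoma were measured in 24 of 29 matched genes. Of these 0 were past 2-fold, against 2.5% higher and 1.49% lower over all genes. Their median log2 ratio was -0.01, against 0.05 over all genes. MYCN, which KELLY carries amplified, was at 787 RPKM with the control siRNA and 1052 RPKM with the SOX9 siRNA (0.42), where SH-SY5Y controls held 2.33 to 3.29 RPKM. HAND2 went from 91.5 to 98.1 RPKM and GATA3 from 57.1 to 58.2 RPKM. TFAP2B, from 59.4 to 46.1 RPKM (-0.36), and SOX4 had the lowest log2 ratios. The high levels of MYCN and of the adrenergic factors go with the labelled cell line.

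Mesenchymal state genes had 12 of 27 measured and 0 past 2-fold, with a median of -0.08. Over all genes 2.5% were past 2-fold higher and 1.49% lower, 56.5% were above 0, and the median was 0.05. ZEB1 went from 21.6 to 12.8 RPKM (-0.74), CDH11 from 7.19 to 3.93 RPKM (-0.79), and TWIST1 was level, at 78.3 and 81.2 RPKM. Neuronal cytoskeleton and synapse genes had 33 measured, 0 past 2-fold and 21 below 0, with a median of -0.13. DPYSL3, which acts in growth cones, went from 54.2 to 29.4 RPKM (-0.87), SYT11 from 50.6 to 29.4 RPKM (-0.77) and MAP1B from 117 to 76.7 RPKM (-0.61). GAP43, of growing axons, went from 87.7 to 116 RPKM (0.40), and TUBB3 from 3.20 to 5.47 RPKM (0.69).

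All 40 DNA replication and mitosis genes were measured, with 0 past 2-fold, 29 above 0 and a median of 0.17. Over all genes 2.5% were past 2-fold higher and 1.49% lower, 56.5% were above 0, and the median was 0.05. RRM2, a subunit of ribonucleotide reductase, had the highest log2 ratio, from 56.1 to 89.9 RPKM (0.67). MKI67 was level, at 46.5 and 46.3 RPKM, and CDKN1A, the p21 inhibitor, at 6.25 and 6.21 RPKM. MCM3 had the lowest, from 179 to 136 RPKM (-0.40). Histone genes, picked after their values were seen, had 5 of 20 past 2-fold lower and 1 higher, against 1.49% and 2.5% over all genes. At RPKM 5 or above in either library 3 were lower and 0 higher. H2BC12 went from 57.5 to 21.5 RPKM, H2AC6 from 20.7 to 7.02 RPKM and H2BC5 from 31.4 to 12.5 RPKM.

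The amino acid stress genes downstream of ATF4 had 22 measured, 1 past 2-fold higher and 19 above 0, with a median of 0.37, against 2.5%, 56.5% and 0.05 over all genes. ASNS, asparagine synthetase, went from 18.3 to 30.8 RPKM (0.74), CHAC1 from 1.70 to 3.39 RPKM (0.82) and ALDH1L2 from 13.1 to 23.5 RPKM (0.82). NUPR1, the 1 past 2-fold, had 5 and 29 reads, and was lost with a pseudocount of 1 and under the filters of RPKM 1 in both libraries and RPKM 5 in either. ATF4 itself went from 76.3 to 69.0 RPKM. Heat shock and unfolded protein genes had 18 of 22 above 0 and a median of 0.27, with HSPA5, the main chaperone of the endoplasmic reticulum, from 125 to 157 RPKM (0.33).

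Hypoxia and glycolysis genes had 26 measured, with a median of 0.19. Of the 26, 1 was past 2-fold higher and 0 lower, against 2.5% and 1.49% over all genes. PDK1, which restrains pyruvate entry into mitochondria, went from 0.506 to 1.71 RPKM (1.13), EGLN3 from 3.06 to 6.56 RPKM (0.99) and VEGFA from 6.32 to 11.0 RPKM (0.75). HK2 went from 14.8 to 26.3 RPKM (0.81) and HK1 from 79.0 to 60.5 RPKM (-0.38). In the IGF list IGFBP3 joined IGF2 past 2-fold, from 0.941 to 2.74 RPKM (1.17), while IGFBP5 went from 44.9 to 24.5 RPKM (-0.86) and IGF1R was near level, at 22.7 and 21.3 RPKM.

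The signalling pathway lists are short and held single members or small numbers past 2-fold. Over all genes 2.5% were higher and 1.49% lower. Among 28 BMP and TGF-beta genes ID1 and ID3 were past 2-fold higher and TGFB1 lower, with 14 above 0 and 14 below. BMP2 went from 0.687 to 1.58 RPKM (0.81) and BAMBI from 18.7 to 31.8 RPKM (0.75), while SMAD6 went from 3.95 to 5.15 RPKM and SMAD7 from 5.37 to 4.54 RPKM. DKK1 was the only 1 of 22 Wnt genes past 2-fold, and HES1 the only 1 of 16 Notch genes. HEY1, another Notch target, went from 28.7 to 35 RPKM (0.28), and HES7 from 1.72 to 0.647 RPKM (-0.96). CRABP2, a carrier of retinoic acid, was the only 1 of 9 retinoid genes past 2-fold, from 93.2 to 36.6 RPKM (-1.34). The SH-SY5Y controls held 23.1, 25.4 and 178 RPKM of CRABP2. Cholesterol synthesis genes (22 measured, median 0.03), Hedgehog and Hippo genes (10 measured, median -0.07), neurotrophic receptors (10 measured, median -0.23) and CHD remodellers (8 measured, median -0.13) had 0 past 2-fold in either direction. Among 21 measured p53 target genes BTG2 was past 2-fold higher and TP53INP1, from 3.61 to 1.53 RPKM (-1.02), lower.

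Genes of NF-kB and cytokine signalling were mostly under the filter, with 9 of 28 matched genes measured. Of these 2 were past 2-fold lower and 0 higher, against 1.49% and 2.5% over all genes. CCL2, 1 of the 2, was a marker given beforehand and passed the filter only through the control library, where it is high. Its call is no independent check of the list. Beside CCL2, NFKBIA, the inhibitor that NF-kB itself induces, went from 45.0 to 18.9 RPKM (-1.23), and NFKB2 from 2.79 to 1.64 RPKM (-0.62). NFKB1 was near level, at 10.1 and 9.61 RPKM. IL6 had at most 1 read in either library, and CXCL8 at most 3. Interferon-stimulated genes had 13 of 33 measured and 0 past 2-fold, with 11 below 0 and a median of -0.17. Over all genes 56.5% were above 0, and the median was 0.05. IFNB1 had 0 reads in both libraries, and MX1 had 6 and 2. Class I antigen presentation genes had 11 measured, 0 past 2-fold, and a median of -0.32, with HLA-E from 2.20 to 1.05 RPKM (-0.80).

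Abundant and reference genes varied little. All 18 reference genes were within 2-fold, with a median of 0.01, such as ACTB at 742 and 791 RPKM. The 10 most abundant protein-coding genes of the control library had log2 ratios between -0.40 (CHGA) and 0.42 (MYCN). Components of the RNA interference machinery had 15 measured and 0 past 2-fold, against 2.5% higher and 1.49% lower over all genes.

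**Figure D5:**
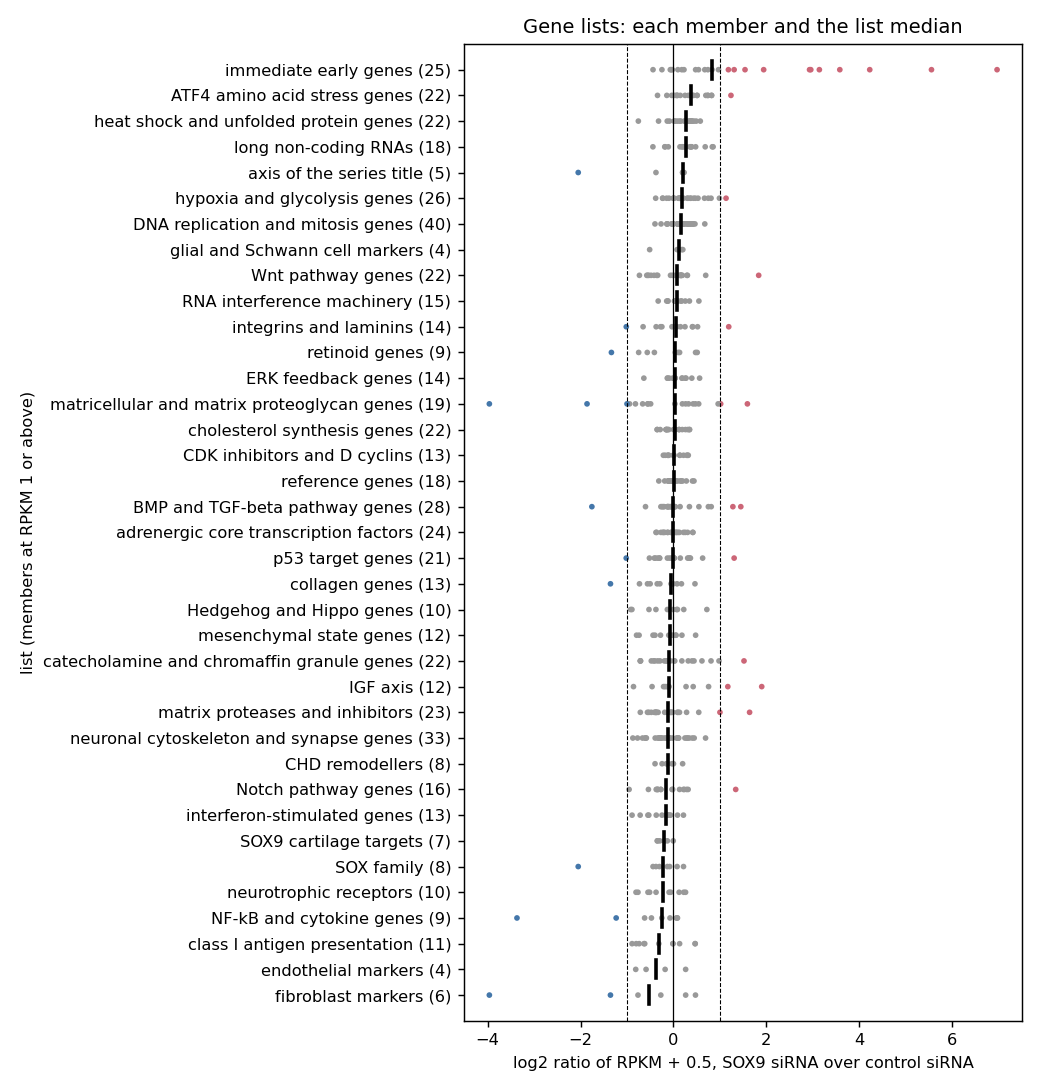
Each row (y axis) is a gene list with the number of members at RPKM 1 or above, for the 37 lists with at least 4 such members, and each point is a member's log2 ratio of RPKM + 0.5 (x axis), red past 2-fold higher and blue past 2-fold lower, with the list median as a black bar. The median of the immediate early genes is at 0.83 (0.67 with RPKM 1 or above in both libraries) and that of the fibroblast markers at -0.52 (-0.0048), and the other medians lie between -0.38 and 0.37.

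Markers of other cell types were given beside these differences, since in bulk RNA fewer cells of a type and less RNA per cell cannot be told apart. Of 12 fibroblast markers 6 passed the filter, with a summed level of 162 RPKM over all 12 in the control and 136 RPKM in the SOX9 siRNA library. DPT and COL3A1, both under 1 RPKM with the SOX9 siRNA, were past 2-fold lower and 0 higher, against 1.49% and 2.5% over all genes. DPT was a marker given beforehand. With RPKM 1 or above in both libraries 0 markers were past 2-fold and the median was -0.0048, in place of -0.52. LUM and DCN were above 0, FAP had 0 reads in both libraries and COL1A1 was at 0.508 and 0.191 RPKM. Of 14 glial and Schwann cell markers 4 were measured, summing to 24.6 and 25.9 RPKM over all 14. Of 10 endothelial markers 4 were measured, summing to 27.6 and 28.8 RPKM, and of 11 blood cell markers 0 were measured, summing to 0.732 and 0.809 RPKM. The part of such cells in the lower matrix genes was not tested.

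The remaining protein-coding genes at 5 RPKM or above past 2-fold lower, 57 in all, are outside the 15 largest. Abundant ones included ATP1B1, a subunit of the sodium pump, from 270 to 89.1 RPKM (log2 ratio -1.59), SLC38A2, a glutamine transporter, from 132 to 62.6 RPKM (-1.07), and OLFM1, an olfactomedin of neurons, from 88.8 to 43.6 RPKM (-1.02). KCNK3, a potassium channel of the resting potential, went from 86.2 to 26.2 RPKM (-1.70), and CACNG4, an AMPA receptor auxiliary subunit, from 50.2 to 23.6 RPKM (-1.07). SSTR2, a somatostatin receptor, went from 7.16 to 1.99 RPKM (-1.62), and YPEL5 from 24.8 to 7.31 RPKM (-1.70). These genes were picked for their level or function after their values were seen.

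Among genes whose type is other than protein-coding, several with the largest log2 ratios rest on few reads. The 3 highest were immunoglobulin D segments of 16 to 18 bases, IGHD4-11, IGHD1-7 and IGHD6-6, with 0 reads in the control and 9, 6 and 6 reads with the SOX9 siRNA. The lower limits of their counting intervals were 2.09-fold, 1.25-fold and 1.25-fold. MIR3153 had 2 and 16 reads, a ratio of 8.49 (1.996 to 76.1). The lowest was RPS2P17, a processed pseudogene of a ribosomal protein gene, with 157 and 6 reads, whose reads may belong to near-identical copies. MALAT1 and NEAT1, abundant nuclear RNAs, went from 14.7 to 20.6 RPKM (0.48) and from 13.6 to 15.6 RPKM (0.19).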

How the data were processed

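Per the labels' protocols, total RNA depleted of ribosomal RNA was made into stranded libraries. TopHat, featureCounts, Subread and build hg19 are named in the submitters' processing notes, while versions, annotation and strand setting are not given in the sources used here. The values the authors deposited are RPKM, 1 column a library, and the gene length is in bases in the deposited monolayer table. Whole reads were recovered from RPKM and length, and all came within 0.01 of a whole number. They sum to 25471924 reads with the control siRNA and 24003701 with the SOX9 siRNA. No column of per-sample values was left without a sample.

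Genes at RPKM 1 or above in either library were kept, a pseudocount of 0.5 was used for log2 ratios, and genes past 2-fold were counted. Exact (Clopper-Pearson) intervals of 95% for read ratios, computed with scipy 1.17.1 in Python 3.11.15 and tested on simulated data, cover counting error only. Reads without molecular identifiers are not independent molecules. Against 0 reads a floor of 3 reads was used.

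Of the kept identifiers 13878 matched the reference gene names. Gene type and overlap came from GENCODE release 29, which is on a later build than hg19, and promoters from RefSeq by symbol, so no coordinates of the measured genes are given beyond those windows. The 38 gene lists and the members were chosen with earlier results of these data known. The rule for naming genes took 7 markers, the 15 largest log2 ratios a direction among protein-coding genes at RPKM 5 or above whose interval did not hold 1, up to 6 list members a direction past 2-fold with the first 3 of a list, and the 10 most abundant genes. It also took 5 genes a direction with a matched type other than protein-coding, which takes in immunoglobulin segments. Other named genes were chosen after their values were seen, for their role or level. Alternatives for pseudocount, filter, scaling and threshold were tried. SH-SY5Y values come from a table normalized separately and served as levels only. The sphere table was not used here, and the values of a few single genes are not reported here.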

Additional observations from a re-analysis of the deposited data

How the results depend on the processing

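The pair has no replicates, so nothing here measures the spread between transfections. No paired analysis was possible because each siRNA group holds 1 library and the result comes from no test. The SOX9 level had a log2 ratio of -2.05, which lay between -2.41 (pseudocount of 0.1) and -1.74 (pseudocount of 1).

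Counts of genes past 2-fold, 359 higher and 214 lower, depended on the settings. With a pseudocount of 0.1 they were 538 and 322, and with 1 they were 239 and 138. With RPKM 1 or above in both libraries they were 106 and 103, with RPKM 5 or above in either library 81 and 90, and with no RPKM filter 585 and 303. At 1.5-fold they were 1043 and 639. In 2 alternatives chosen after seeing the data, genes of 300 bases or longer gave 136 and 161, and protein-coding genes gave 60 and 122. The share of higher among all calls was 62.7% as reported, 45.8% for genes of 300 bases or longer and 33.0% for protein-coding genes, with 47.4% at RPKM 5 or above in either library. Setting the median of 13070 genes to 0, a shift of 0.04, gave 334 and 231, and totals without the 100 most read genes gave 358 and 215.

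Values of single named genes were counted once per alternative run. Of these, 388 stayed within the reach of their counting interval and 23 moved beyond it. Alternatives that only select genes, by RPKM, length or type, leave the log2 ratio of a kept gene unchanged, so values there could not move. The 23 came from the pseudocounts of 0.1 (9 values) and 1 (4) and from setting the median to 0 (10). With few reads the interval is wide, so a large move can stay within it. Of the genes past 2-fold 0 changed sign, but no pseudocount or scaling shift used could reverse a sign there. Medians of gene lists, counted the same way, moved within the median counting interval of their members 366 times and beyond it 18 times. Counts of list members past the fold threshold, 1.5-fold included, moved by over 1.5 times or to or from 0 in 40 of 427 cases higher and 45 of 427 lower. The immediate early genes went from 11 higher (median 0.83) to 7 (0.67) with RPKM 1 or above in both libraries and to 10 (1.24) at RPKM 5 or above in either. The fibroblast markers went from 2 lower (-0.52) to 0 (-0.0048) and 1 (-0.27) there. The median of the matricellular genes went from 0.03 to -0.23 and that of the integrins and laminins from 0.06 to -0.14 at RPKM 5 or above. Depth limits genes with few reads, above all those under 300 bases.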

Other observations

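Genes of the imprinted DLK1-MEG3 region had 7 of 7 measured members above 0 with the SOX9 siRNA, a set picked after its values were seen. Of 9 genes 7 passed the RPKM filter, 1 was past 2-fold higher and 6 past 1.5-fold, against 2.5% and 7.27% over all genes, and the median log2 ratio was 0.75. DLK1, a paternally expressed non-canonical Notch ligand of sympathoadrenal cells, went from 324 to 553 RPKM (18893 and 30378 reads). MEG3, a maternally expressed long non-coding RNA, went from 70.9 to 128 RPKM, a log2 ratio of 0.85. RTL1, a retrotransposon-derived gene, went from 5.91 to 13.2 RPKM (1.09), and MEG8, MIR493HG and the neighbour BEGAIN had log2 ratios of 0.68, 0.64 and 0.75. MEG9 had the smallest, 0.31. Genes expressed from either parental copy were thus above 0. MEG3 had at most 0.0319 RPKM in the SH-SY5Y controls, where DLK1 lay between 164 and 821 RPKM.

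TH and IGF2, both past 2-fold higher, stand close together on chromosome 11, with INS and IGF2-AS between or over them and H19 beyond, in the RefSeq order (GRCh38.p14). The genes under the filter there had few reads, 18 and 45 for IGF2-AS, 0 and 5 for INS, and 10 and 43 for H19. Whether this closeness bears on the values was not tested.

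S100A6, S100A5, S100A4, S100A3 and S100A2 follow each other on chromosome 1 in the same RefSeq order, and all 5 had log2 ratios below 0, from -0.68 for S100A6 to -2.18 for S100A4. S100A5 had 15 and 2 reads and stayed under the filter. Genes of the same stretch with more distant positions included S100A16 at -1.23, S100A13 at -0.73 and S100A14, with 2 and 4 reads.

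Genes for small nucleolar RNAs, also picked after their values were seen, had 43 of 99 past 2-fold higher and 4 lower, with a median log2 ratio of 0.84. The share over all genes was 2.5% higher and 1.49% lower, and over small RNA genes 42.0% higher, close to that of this family. With RPKM 1 or above in both libraries 15 were higher, and at RPKM 5 or above in either library 11. Most rest on few reads: SNORA73B had 17 and 69 reads, SNORD83A had 13 and 39, while the most read, SNORD104, had 80 and 87. Ribosomal protein genes had 82 measured, with a median of -0.05.

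Genes that encode regulators of G-protein signalling differed in direction. RGS5, among the 10 most abundant genes, was level at 636 and 628 RPKM. RGS2 went from 116 to 58.3 RPKM (-0.99), while RGS16 went from 39.8 to 73.8 RPKM (0.88) and RGS4 from 111 to 169 RPKM (0.61).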
